A study of Homo sapiens with 6 samples.

Results

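Expression of 48 genes of the WNT pathway, covering ligands and the enzymes that secrete them, receptors, inhibitors, cytoplasmic signalling proteins, transcription factors and beta-catenin targets, was examined in 6 RNA-seq libraries of HepG2 cells. The genes were chosen by symbol for their role in the pathway, with earlier results of these data known. Their shares beside all genes are thus not those of a list drawn up blind to the data. Values for 45 of them were found among the 20026 genes of the deposited table, and *DKK3*, *WIF1* and *WNT5A* were not analysed here. HepG2, a line grown from a human liver tumour, carries an activating deletion in *CTNNB1*, the gene of beta-catenin, and every group shares that deletion.

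The study edited the cluster that encodes miR-23a, miR-27a and miR-24-2, and asked which genes respond when its miRNAs are lost. Its 3 groups held 2 libraries each. Scr cells were labelled as wild type and, per the study's methods, received the Cas9 and GFP plasmid PX458 as the control. The KO cells, named miR-23a KO or miR-27a KO after the miRNA targeted, received the same plasmid with a pair of guides flanking the mature miRNA. Their colonies were picked after sorting of single GFP-positive cells, and the study's methods speak of selected colonies for scramble cells too. Each group may thus rest on few founder cells. Differences between founder cells cannot be told apart from effects of the editing. The Scr libraries held totals of 14891239 and 14405250 counts, those of miR-27a KO 15850589 and 15947308, and those of miR-23a KO 16515261 and 15930779. The labels do not say whether replicates were separate colonies or cultures, so p-values measure the spread between these libraries, which may be technical. The miRNA genes that were edited were not analysed here, so only the label gives a library's group. Parts of the labels' wording do not match HepG2, and the titles were followed.

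WNT ligands are lipid-modified proteins that bind Frizzled receptors and the co-receptors LRP5 and LRP6 on a receiving cell. In the canonical branch this stops a cytoplasmic complex of APC, AXIN and GSK3B from marking beta-catenin for destruction, and beta-catenin then switches on target genes together with TCF and LEF factors. In the liver the pathway controls the enzymes made around the central vein, and mutations that stabilise beta-catenin are frequent in liver cancer.

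The mature miRNAs of the edited genes are shown because the seed, bases 2 to 8 and written in capitals, is the part that pairs with messenger RNA. Both come from RefSeq (GRCh38.p14) and lie on the minus strand of chromosome 19, miR-23a-3p at chr19:13836595-13836615 and miR-27a-3p at chr19:13836447-13836467.
hsa-miR-23a-3p: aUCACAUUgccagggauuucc
hsa-miR-27a-3p: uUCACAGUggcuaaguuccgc

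Matches to the seeds were sought in the longest 3′-UTR among the protein-coding transcripts of each gene in GENCODE 29 (GRCh38), as AATGTGA for miR-23a-3p and ACTGTGA for miR-27a-3p on the transcript strand. Of the 45 members, 16 (35.6%) held a miR-23a-3p match and 11 (24.4%) a miR-27a-3p match, against 19.3% and 16.7% of the 15883 genes with a 3′-UTR. The median 3′-UTR of the members was 1587 bases long and that of all these genes 1225 bases. A match describes the letters of the transcript and is neither a shown binding site nor a cause. The co-receptor gene *LRP5* held both matches side by side within a 3′-UTR of 205 bases, at chr11:68449191-68449197 and chr11:68449198-68449204 on the plus strand. *WNT3* held 2 miR-23a-3p matches, at chr17:46764270-46764276 and chr17:46763494-46763500 on the minus strand, and no miR-27a-3p match. *FZD4* also held 2, at chr11:86949015-86949021 and chr11:86945998-86946004 on the minus strand, *LGR5* held 1 at chr12:71584778-71584784 on the plus strand, and *GSK3B* held 1 miR-23a-3p match and 2 miR-27a-3p matches. The transcript around these matches is written below with the match in capitals.
LRP5, miR-23a-3p: acatgagaAATGTGAactgtgat
LRP5, miR-27a-3p: aaatgtgaACTGTGAtggggtgg
WNT3, miR-23a-3p: gctgggctAATGTGAgctctcag
WNT3, miR-23a-3p: ctggggccAATGTGAgtaaacac
FZD4, miR-23a-3p: aaatgtaaAATGTGAactccctg
FZD4, miR-23a-3p: aaagataaAATGTGActtcccct
LGR5, miR-23a-3p: aacctgaaAATGTGAgattgagt
GSK3B, miR-23a-3p: agttaaatAATGTGAactgtaac
GSK3B, miR-27a-3p: atctcaccACTGTGAataagttt
GSK3B, miR-27a-3p: gaaagacaACTGTGAgccatctt

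Levels are given as CPM, counts scaled to library size with TMM factors over all 6 libraries. Of the 45 members, 30 stood at 1 CPM or more in every library, 8 of them at 100 CPM or more, and 8 stood under 1 CPM in every library. A count of 0 allows up to 3 counts, or between 0.161 and 0.228 CPM in these libraries. Such limits and all intervals cover counting error only. *LEF1*, a transcription factor that partners beta-catenin, had 0 counts in all 6 libraries, and *WLS*, the carrier that brings WNT proteins to the cell surface, had 1 count in miR-27a KO replicate 1 and 0 in the other libraries. The ligands *WNT2B*, *WNT9A* and *WNT16* had between 0 and 3 counts per library. The Frizzled genes *FZD2*, *FZD7* and *FZD8* and the inhibitor *SFRP1* stood at 1.14 CPM or less in every library. In miR-27a KO these 9 members were too low to test. How reads that map to several places were counted is not given in the sources used here, so low levels, among them those of *LEF1*, *WLS* and *GLUL*, may be too low.

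Between genes, levels can be compared only per length of transcript, here that of the longest protein-coding transcript in GENCODE 29, and the order depends on that choice. On the scale of CPM per kilobase, the highest level among the members in Scr was that of *NOTUM*, a secreted enzyme that strips the lipid from WNT proteins and is itself a beta-catenin target, at 201 ± 49 (SD, n = 2). *SP5*, a transcription factor gene switched on by beta-catenin, followed at a level of 117 ± 8.18 CPM per kilobase, then *LRP5* at 82.6 ± 14.4, *DVL1* at 82.6 ± 9.42 and *CTNNB1* at 78 ± 8.48. The last 3 levels lay within each other's spread. *NKD1* had a mean of 608 CPM in Scr and, over an annotated transcript of 17105 bases, a level of 35.5 ± 7.98 CPM per kilobase, which would be higher if a shorter transcript is made. The ligands stood lower, *WNT3* at a level of 11.5 ± 2.12 and *WNT9B* at 10.8 ± 2.12 CPM per kilobase, and these also did not differ beyond their spread. Frizzled levels per kilobase ran from 13.2 ± 0.0588 for *FZD5* and 6.62 ± 0.102 for *FZD4* to 0.921 ± 0.109 for *FZD6* and less for the others. *GLUL*, the glutamine synthetase made by hepatocytes around the central vein, had a level of 2.02 ± 0.144 CPM per kilobase.

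**Figure D1:**
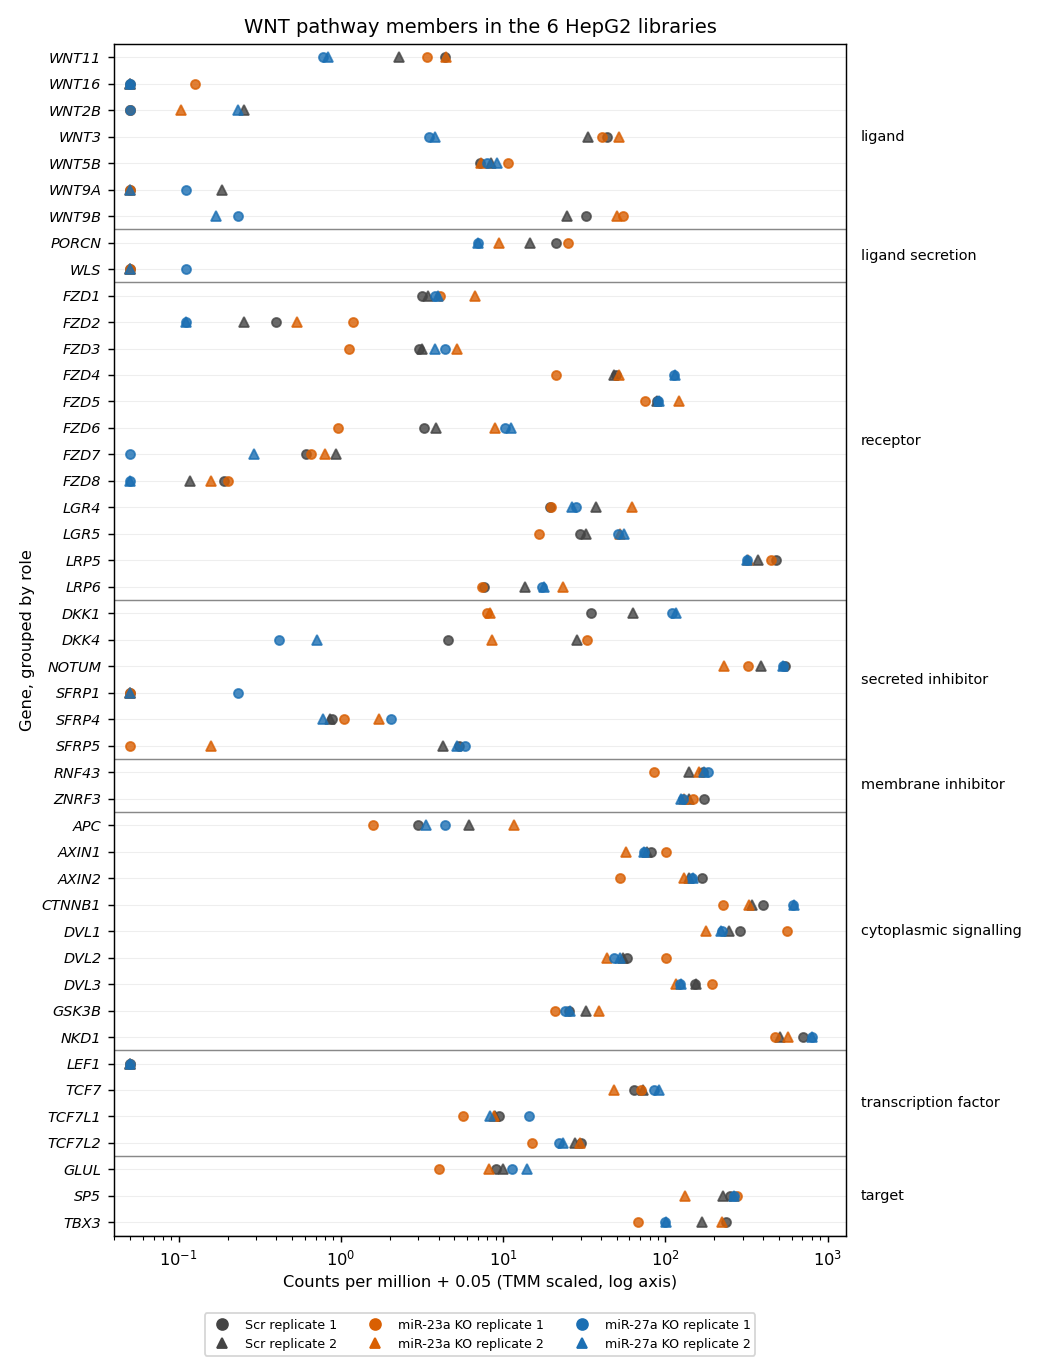
CPM plus 0.05 on a log axis for the 45 members ordered by role, with 1 point per library and a colour for each of the 3 groups. The points of *WNT9B* and *DKK4* in miR-27a KO lie far left of those in Scr, while *DKK1* and *FZD4* lie to the right.

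The libraries of a group did not lie equally close. On log2 CPM with TMM factors and a prior count of 2, over 13328 genes, 8% were more than 2-fold apart between the Scr libraries, 46.7% between the miR-23a KO libraries and 2.4% between the miR-27a KO libraries. Of 37 members compared, 2 were more than 2-fold apart in the Scr pair, 15 in the miR-23a KO pair and 2 in the miR-27a KO pair. The members with the widest gaps in miR-23a KO were *FZD6*, with a GC content of 38.4%, and *APC*, with 39.6%, both higher in replicate 2. Among others over 2-fold apart, *TBX3* with 52.4% was higher in replicate 2, and *DKK4* with 52.0% and *DVL1* with 67.2% were lower. Across these 37 genes, which are not independent replicates and share their libraries, the log2 ratio of replicate 2 to replicate 1 had a Spearman correlation with GC content of -0.74 in miR-23a KO, -0.56 in Scr and -0.12 in miR-27a KO. The same correlations over all 13328 genes were -0.67, -0.46 and -0.09.

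**Figure D2:**
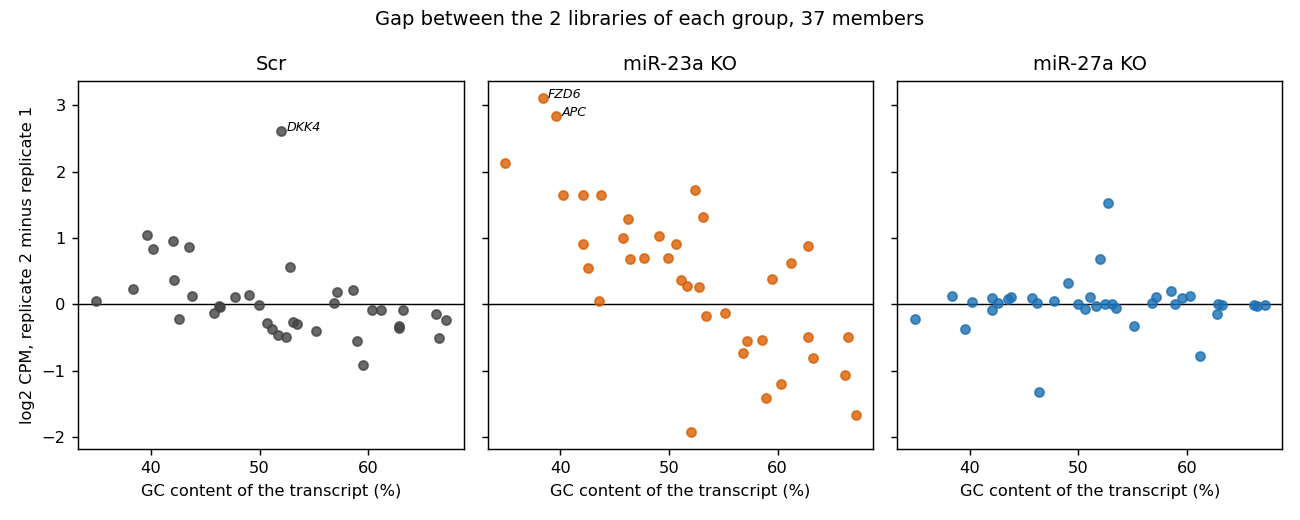
Log2 ratio of CPM in replicate 2 to replicate 1 against GC content in percent for 37 members, in a panel per group, where each point is a gene. Points slope down in miR-23a KO, with a Spearman correlation of -0.74, and lie near 0 in miR-27a KO.

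Each KO was compared with Scr to find which members differ between edited and control cells. A gene was called when its fold change was over 1.5 and its adjusted p under 0.05. In miR-27a KO, the WNT ligands *WNT3*, *WNT9B* and *WNT11*, the ligand-processing enzyme gene *PORCN*, the inhibitor *DKK4* and the target *TBX3* fell, and the receptors *FZD4*, *FZD6* and *LGR5*, the inhibitor *DKK1* and *CTNNB1* rose. By edgeR's quasi-likelihood test, 36 members passed the filter on low counts, 5 were called higher (13.9%, against 3.52% of all 13820 genes tested) and 6 lower (16.7%, against 6.74%). Fewer members, and fewer of all genes, were called without either miR-27a KO library, and more of both without either Scr library. The ranges of these counts stand at the end of the text. Over 1.5-fold with no overlap between the libraries, 6 members were higher, where 10.8% of all genes were, and 6 were lower, where 12.7% were. Over the members tested, the log2 fold change had a median of 0.08 (-0.08 without miR-27a KO replicate 1), and over all genes of 0.01 in both fits. At the study's threshold of 0.001 for the adjusted p, 0 members were called in either direction by this test. At an unadjusted p under 0.05, 6 members stood higher and 11 lower, and DESeq2 called 5 higher and 6 lower at an adjusted p under 0.05. No share of all genes is given for counts at an unadjusted p, here or below, or for DESeq2 in this KO. Such counts do not set the members apart from other genes. When all 6 libraries were fitted at once, miR-23a KO with its wide spread entered too. In that fit 0 members were called higher and 2 lower, and the latter were *WNT3* and *WNT9B*.

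**Figure D3:**
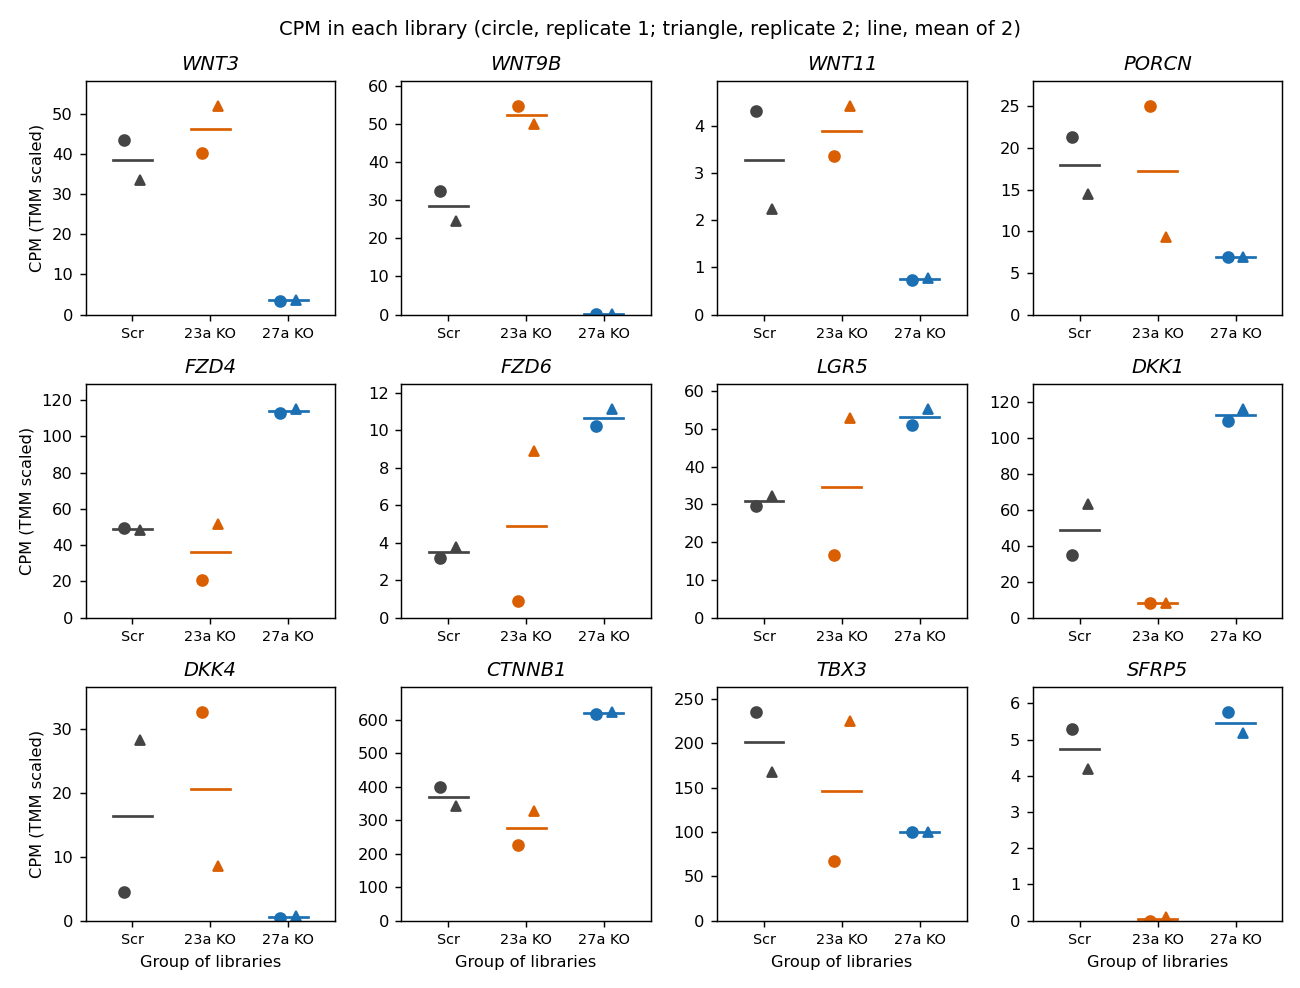
CPM per library for the 11 members called in miR-27a KO and for *SFRP5*, in a panel per gene, with 1 point per library in each of the 3 groups and a line at the mean of the 2 libraries. The 2 miR-27a KO points of *WNT3* lie at 3.45 and 3.73 CPM, under the Scr points at 43.6 and 33.5 CPM.

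Among the ligands, *WNT3* and *WNT9B* had the highest levels per kilobase in Scr. The level of *WNT9B*, which signals through beta-catenin, was 32.5 and 24.6 CPM in Scr, 54.8 and 50.2 CPM in miR-23a KO, and 0.182 and 0.12 CPM in miR-27a KO. The miR-27a KO values rested on 3 and 2 counts and lay far below both other groups. Pooled over the pair, 5 counts against 832 in Scr gave a 189-fold lower level, with a 95% counting interval of 80.6 to 583-fold. For *WNT3*, a canonical ligand, the level was 43.6 and 33.5 CPM in Scr, 40.4 and 52 CPM in miR-23a KO, and 3.45 and 3.73 CPM in miR-27a KO. Both miR-27a KO libraries were low and the other 4 libraries overlapped. *WNT11*, a ligand best known for signalling without beta-catenin, stood at 4.31 and 2.23 CPM in Scr, 3.35 and 4.41 CPM in miR-23a KO, and 0.727 and 0.783 CPM in miR-27a KO. Again the miR-27a KO libraries alone were low. The log2 fold changes in miR-27a KO against Scr were -7.49 (SE 0.34) for *WNT9B*, -3.42 (SE 0.20) for *WNT3* and -2.11 (SE 0.48) for *WNT11*. Each fell in 2 of 2 libraries, with adjusted p of 0.00204, 0.00329 and 0.047 by edgeR's quasi-likelihood test and Benjamini-Hochberg adjustment. *WNT5B*, the other ligand tested, had levels between 7.16 and 10.6 CPM in the 6 libraries and a log2 fold change of 0.13 (SE 0.22) in miR-27a KO. Summed over the 7 ligands, the level was 87.6 and 69 CPM in Scr, 109 and 114 CPM in miR-23a KO, and 12.3 and 13.9 CPM in miR-27a KO. In these bulk samples fewer cells making a transcript and less of it per cell cannot be told apart. The call of *WNT11* was lost without miR-27a KO replicate 1 (log2 fold change -2.05), without miR-27a KO replicate 2 (-2.15) and without a filter on low counts (-2.09).

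*WNT3* and *WNT9B* are neighbours on chromosome 17. In GENCODE 29 (GRCh38), *WNT3* spans chr17:46762506-46833154 on the minus strand and *WNT9B* chr17:46833201-46886730 on the plus strand, so that they point away from each other with the outer annotated ends 47 bases apart. The genes on either side were looked up after the values of the pair were seen. *NSF*, a fusion protein gene next to *WNT3*, had 50.4 and 52.7 CPM in Scr and 63.4 and 65.7 CPM in miR-27a KO, a log2 fold change of 0.32. On the other side *GOSR2*, a gene of Golgi transport, had 98.6 and 114 CPM in Scr and 80.1 and 80.1 CPM in miR-27a KO, a log2 fold change of -0.41. Neither was called, with adjusted p of 0.0763 for *NSF*, higher in 2 of 2 miR-27a KO libraries, and 0.0547 for *GOSR2*, lower in 2 of 2, by edgeR's quasi-likelihood test and Benjamini-Hochberg adjustment. Both ligand genes thus fell while these flanking genes stayed within 1.5-fold of Scr.

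**Figure D4:**
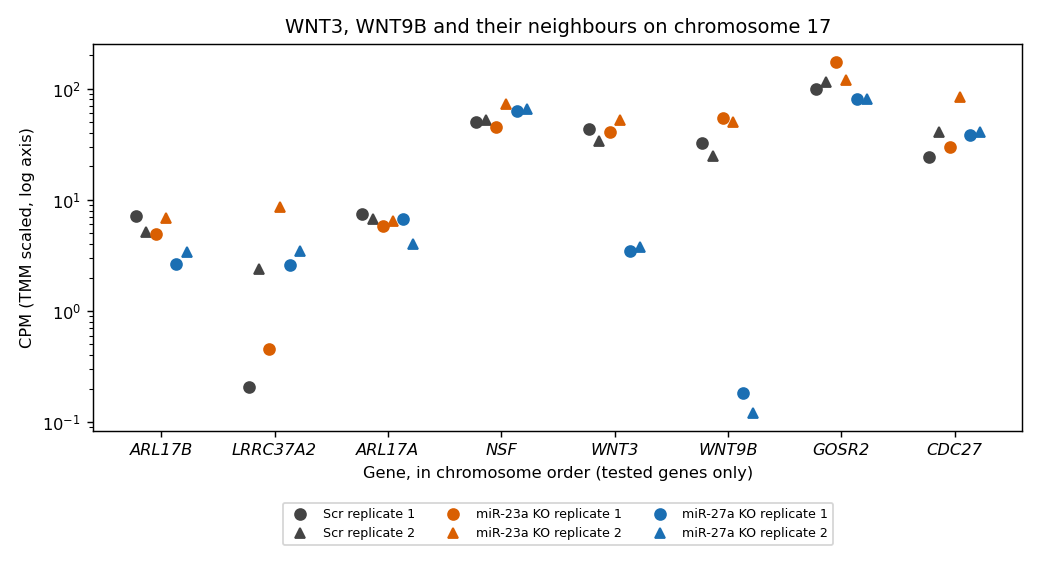
CPM on a log axis for *WNT3*, *WNT9B* and their neighbours in chromosome order, with 1 point per library and a colour per group. In miR-27a KO the 2 ligand genes lie below Scr, *WNT9B* at 0.182 and 0.12 CPM, while *NSF* and *GOSR2* stay between 63.4 and 80.1 CPM.

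Of the 2 secretion genes, *PORCN* was tested. It encodes the enzyme that attaches the lipid to WNT proteins, and its level was 21.3 and 14.5 CPM in Scr, 25 and 9.36 CPM in miR-23a KO, and 6.91 and 6.92 CPM in miR-27a KO. The miR-27a KO libraries were the lowest of the 6. *PORCN* fell by 1.37 on the log2 scale (SE 0.24), in 2 of 2 libraries, with an adjusted p of 0.0273 by edgeR's quasi-likelihood test and Benjamini-Hochberg adjustment. Its call was lost without miR-27a KO replicate 1 (log2 fold change -1.37) and without miR-27a KO replicate 2 (-1.36).

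Of 9 receptors tested, 3 rose in miR-27a KO. The level of *FZD4*, a Frizzled that binds WNT proteins and norrin, was 49.4 and 48.4 CPM in Scr, 21 and 51.5 CPM in miR-23a KO, and 113 and 115 CPM in miR-27a KO. *FZD6*, a Frizzled known from planar cell polarity, stood at 3.2 and 3.78 CPM in Scr, 0.913 and 8.88 CPM in miR-23a KO, and 10.2 and 11.1 CPM in miR-27a KO. *LGR5*, a receptor for R-spondins and a beta-catenin target, had 29.5 and 32.1 CPM in Scr, 16.7 and 52.7 CPM in miR-23a KO, and 51.1 and 55.2 CPM in miR-27a KO. For all 3 both Scr libraries lay below the miR-27a KO libraries, and the miR-23a KO libraries straddled Scr. Against Scr, the log2 fold change was 1.22 (SE 0.08) for *FZD4*, 1.61 (SE 0.23) for *FZD6* and 0.78 (SE 0.11) for *LGR5*. Each rise was seen in 2 of 2 libraries, with adjusted p of 0.0041, 0.0174 and 0.0166 by edgeR's quasi-likelihood test and Benjamini-Hochberg adjustment. The co-receptor *LRP6* stood at 7.58 and 13.6 CPM in Scr, 7.38 and 23.5 CPM in miR-23a KO, and 17.3 and 17.7 CPM in miR-27a KO. Its miR-27a KO libraries lay above Scr without passing the test (log2 fold change 0.72, SE 0.30), and it was called without Scr replicate 2 (1.21) but had 0.36 without Scr replicate 1. *LRP5*, the other co-receptor, had 478 and 374 CPM in Scr, 449 and 321 CPM in miR-23a KO, and 317 and 320 CPM in miR-27a KO, with a log2 fold change of -0.42 (SE 0.13) in miR-27a KO that did not pass, though it was called lower without Scr replicate 2 (-0.59) and not without Scr replicate 1 (-0.23). *FZD1*, *FZD3*, *FZD5* and *LGR4* were not called either, at log2 fold changes between -0.06 and 0.40. Summed over all 12 receptors, the level was 684 and 605 CPM in Scr, 596 and 654 CPM in miR-23a KO, and 636 and 645 CPM in miR-27a KO, which lay inside the range of Scr. Over the 8 Frizzled genes alone, the level was 149 and 148 CPM in Scr, 103 and 194 CPM in miR-23a KO, and 222 and 226 CPM in miR-27a KO. The call of *FZD6* was lost without miR-27a KO replicate 1 (1.67) or 2 (1.56), and so was that of *LGR5* (0.84 and 0.74). *FZD2*, which did not pass the filter on low counts with 4 libraries in a fit, held 5 and 3 counts in the Scr libraries, 15 and 9 counts in those of miR-23a KO and 1 count in each miR-27a KO library.

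Secreted inhibitors split. *DKK1*, which blocks LRP5 and LRP6 and is a beta-catenin target, had 34.7 and 63 CPM in Scr, 7.91 and 8.23 CPM in miR-23a KO, and 109 and 116 CPM in miR-27a KO. The 3 groups did not overlap, with miR-23a KO lowest and miR-27a KO highest. *DKK4*, a relative of *DKK1*, had 4.52 and 28.3 CPM in Scr, 32.6 and 8.5 CPM in miR-23a KO, and 0.363 and 0.662 CPM in miR-27a KO. Scr and miR-23a KO overlapped and each spanned a wide range, and both miR-27a KO libraries lay below all of them. In miR-27a KO *DKK1* rose by a log2 fold change of 1.20 (SE 0.27) and *DKK4* fell, at -4.98 (SE 1.07). Both directions were seen in 2 of 2 libraries, with adjusted p of 0.0464 for *DKK1* and 0.0404 for *DKK4* by edgeR's quasi-likelihood test and Benjamini-Hochberg adjustment. Without a filter on low counts both calls were lost (1.22 and -4.97), the call of *DKK1* was lost without miR-27a KO replicate 2 (1.17), and the log2 fold change of *DKK4* was -3.12 without Scr replicate 2. *NOTUM* had 549 and 388 CPM in Scr, 321 and 229 CPM in miR-23a KO, and 534 and 528 CPM in miR-27a KO, so that miR-27a KO lay inside the range of Scr. *SFRP5*, which binds WNT proteins outside the cell, had 5.28 and 4.19 CPM in Scr, 0 and 0.108 CPM in miR-23a KO, and 5.75 and 5.18 CPM in miR-27a KO. Its relative *SFRP4* had 0.834 and 0.811 CPM in Scr, 0.989 and 1.67 CPM in miR-23a KO, and 2 and 0.723 CPM in miR-27a KO. The membrane inhibitors *RNF43* and *ZNRF3*, ubiquitin ligases that remove Frizzled from the cell surface, were not called in miR-27a KO, at log2 fold changes of 0.21 and -0.31.

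In the cytoplasm, *CTNNB1* was the member called. Its level was 398 and 341 CPM in Scr, 225 and 328 CPM in miR-23a KO, and 616 and 622 CPM in miR-27a KO. The miR-27a KO libraries were the 2 highest and the miR-23a KO libraries the 2 lowest. The rise in miR-27a KO had a log2 fold change of 0.74 (SE 0.10), or 1.67-fold, in 2 of 2 libraries, with an adjusted p of 0.0166 by edgeR's quasi-likelihood test and Benjamini-Hochberg adjustment. After correction for GC content and length the log2 fold change was 0.51 (0.52 with the replicate number as a block), and the call was lost. It was also lost without miR-27a KO replicate 1 (0.76) and without miR-27a KO replicate 2 (0.75).

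The other parts of the destruction complex were not called. *APC*, a scaffold of the complex, had 2.92 and 6.15 CPM in Scr, 1.52 and 11.6 CPM in miR-23a KO, and 4.3 and 3.31 CPM in miR-27a KO. *AXIN1*, a further scaffold, had 81.8 and 77.1 CPM in Scr, 101 and 57.3 CPM in miR-23a KO, and 73.8 and 73.7 CPM in miR-27a KO. For the kinase gene *GSK3B* the values were 25.3 and 32.6 CPM in Scr, 20.8 and 39.2 CPM in miR-23a KO, and 24.2 and 25.9 CPM in miR-27a KO. Groups overlapped for *APC* and *GSK3B*, and *AXIN1* in miR-27a KO lay just below Scr. *AXIN2*, a scaffold that beta-catenin itself switches on, had 169 and 140 CPM in Scr, 52.6 and 131 CPM in miR-23a KO, and 146 and 147 CPM in miR-27a KO. Its miR-27a KO libraries lay between the Scr libraries (log2 fold change -0.08, SE 0.11), and the sign turned after correction for GC content and length (0.04). The Dishevelled genes relay the signal from Frizzled to the destruction complex. *DVL1* had 289 and 246 CPM in Scr, 562 and 177 CPM in miR-23a KO, and 222 and 221 CPM in miR-27a KO. *DVL2* had 58 and 54.5 CPM in Scr, 101 and 43.8 CPM in miR-23a KO, and 48 and 52.3 CPM in miR-27a KO. *DVL3* had 152 and 154 CPM in Scr, 193 and 117 CPM in miR-23a KO, and 123 and 125 CPM in miR-27a KO. All 3 lay below Scr in miR-27a KO without being called, at log2 fold changes of -0.28, -0.17 and -0.31. *NKD1*, which binds Dishevelled and is a beta-catenin target, had 705 and 511 CPM in Scr, 472 and 571 CPM in miR-23a KO, and 806 and 796 CPM in miR-27a KO, a log2 fold change of 0.39 (SE 0.16) in miR-27a KO that did not pass. It was called higher without Scr replicate 1 (0.65) and not without Scr replicate 2 (0.19).

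The 3 TCF transcription factor genes tested were not called in miR-27a KO. *TCF7L2*, the family member best known from intestine and liver, had 30.2 and 27.7 CPM in Scr, 14.9 and 29.9 CPM in miR-23a KO, and 21.9 and 23.5 CPM in miR-27a KO. *TCF7* had 63.7 and 72.5 CPM in Scr, 71 and 48.4 CPM in miR-23a KO, and 84.5 and 91.3 CPM in miR-27a KO. The miR-27a KO libraries lay below Scr for *TCF7L2* (log2 fold change -0.35, SE 0.13) and above it for *TCF7* (0.36, SE 0.10). *TCF7L1* had levels between 5.63 and 14.3 CPM in the 6 libraries and a log2 fold change of 0.30 (SE 0.30) in miR-27a KO.

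Of the 3 other target genes, *TBX3* fell in miR-27a KO. This T-box transcription factor gene had 235 and 168 CPM in Scr, 67.7 and 225 CPM in miR-23a KO, and 99.5 and 100.4 CPM in miR-27a KO. The miR-27a KO libraries lay below both Scr libraries, and the miR-23a KO libraries reached from below them up into the range of Scr. Its log2 fold change was -1.01 (SE 0.17), lower in 2 of 2 libraries, with an adjusted p of 0.0245 by edgeR's quasi-likelihood test and Benjamini-Hochberg adjustment. The call was lost without miR-27a KO replicate 1 (-1.0) and without miR-27a KO replicate 2 (-1.01). *GLUL* had 9.04 and 10 CPM in Scr, 3.96 and 8.18 CPM in miR-23a KO, and 11.2 and 14 CPM in miR-27a KO, with log2 fold changes of 0.40 (SE 0.20) in miR-27a KO and -0.56 (SE 0.63) in miR-23a KO that did not pass. For *SP5* the level was 249 and 225 CPM in Scr, 275 and 132 CPM in miR-23a KO, and 265 and 264 CPM in miR-27a KO.

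**Figure D5:**
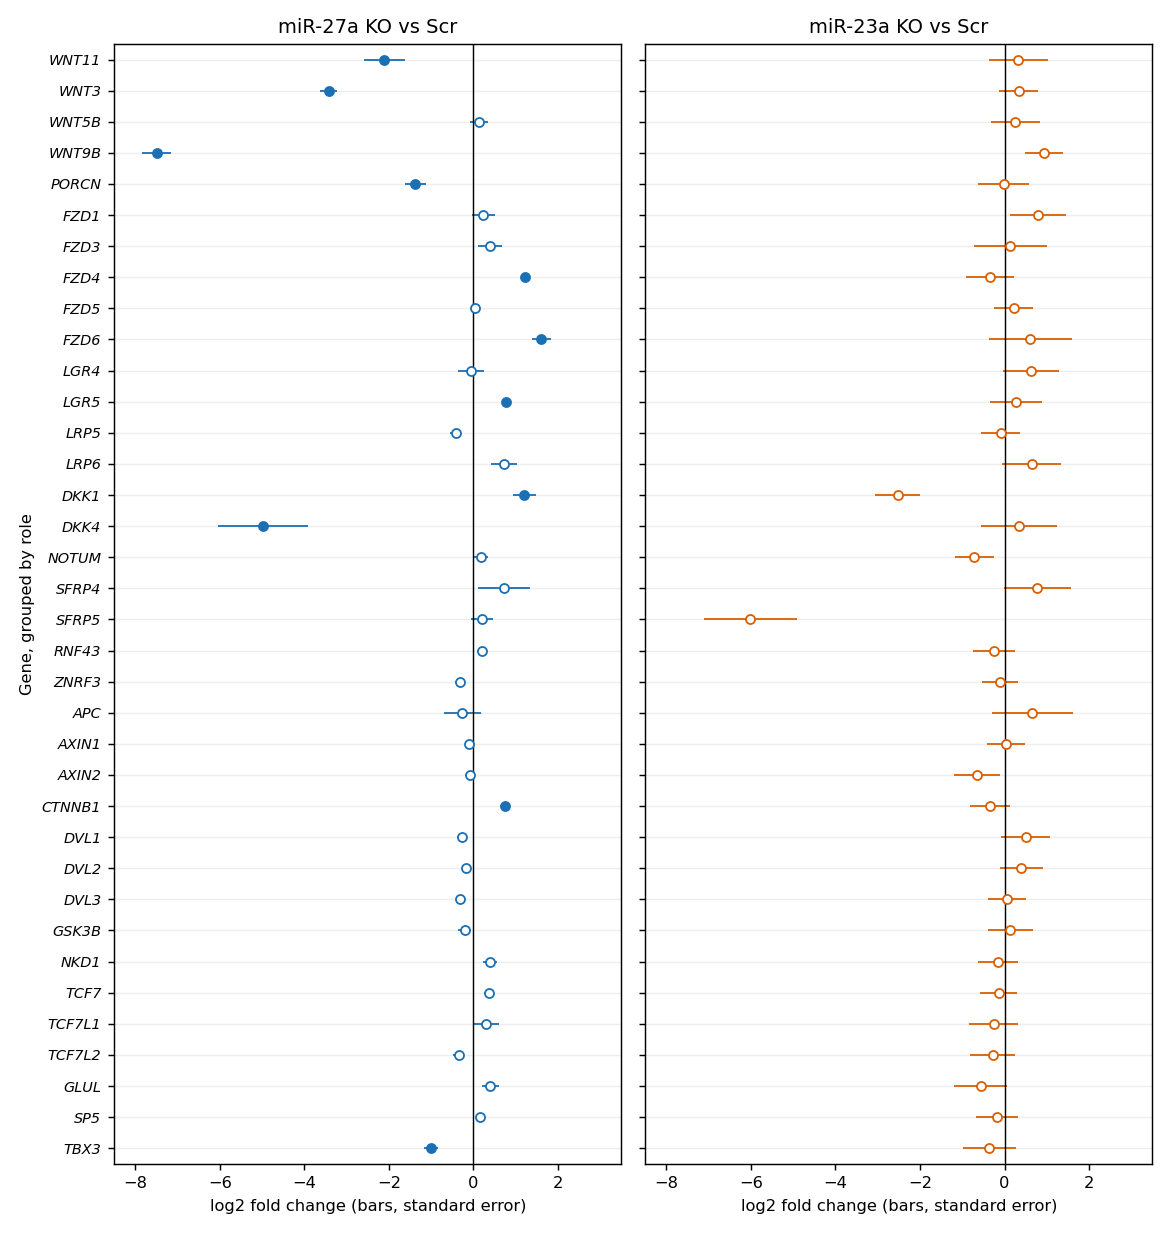
Log2 fold change against Scr with its standard error for the 36 members tested in both comparisons, ordered by role, with 1 point per gene and KO. Filled points mark the 11 calls, all in miR-27a KO, from -7.49 for *WNT9B* to 1.61 for *FZD6*. The miR-23a KO bars are wider for every member but *DKK4*.

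Members with a seed match were set beside those without. The name of a KO gives the miRNA targeted and not which miRNAs of the cluster changed, and matches to miR-24 were not sought. In miR-27a KO, the 7 tested members with a miR-27a-3p match had a median log2 fold change of -0.06 and the 29 others 0.13, and none of the 7 was among the called members. Of all 2111 genes tested with this match, 4.41% were called higher and 6.35% lower. Over all genes tested the medians were 0.07 with and -0.01 without the match. Split by the miR-23a-3p match, the medians in this KO were 0.03 with and 0.13 without among the members, and 0.14 and -0.02 over all genes. Called members held miR-23a-3p matches in 3 cases, *FZD4* and *LGR5*, which rose, and *WNT3*, which fell, out of 13 tested with such a match. Of all 2430 genes tested with it, 4.24% were called higher and 5.39% lower. In miR-23a KO, the 14 tested members with a miR-23a-3p match had a median log2 fold change of 0.14 and the 23 others -0.02, beside 0.23 and 0.15 over all genes. Split by the miR-27a-3p match, the medians there were 0.14 with and -0.02 without among the members, and 0.18 and 0.17 over all genes. *LRP5*, with both matches side by side, had log2 fold changes of -0.42 in miR-27a KO and -0.09 in miR-23a KO.

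In miR-23a KO, *DKK1* and *SFRP5* stood far below Scr in both libraries, and *WNT9B* stood above it, but no member passed the test. Of 37 members tested, edgeR's quasi-likelihood test called 0 higher and 0 lower, as it called 0% of all 13786 genes in either direction, with 0 members higher and 2 lower at an unadjusted p under 0.05, while DESeq2 called 0 higher and 2 lower. Over 1.5-fold with no overlap, 3 members were higher, where 6.19% of all genes were, and 4 were lower, where 6.59% were. The median log2 fold change was 0.04 over the members and 0.16 over all genes, and without miR-23a KO replicate 2 these were -0.37 and -0.08. With a library left out, 26 of 37 members turned sign, so the medians without replicate 2 describe that fit alone. The members lower over 1.5-fold with no overlap were *SFRP5*, *DKK1*, *NOTUM* and *AXIN2*, and those higher were *WNT9B*, *FZD1* and *SFRP4*.

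For *SFRP5* the miR-23a KO libraries held 0 and 2 counts against 76 and 62 in Scr and 95 and 86 in miR-27a KO. Pooled, its level was 75-fold below Scr, with a 95% counting interval of 20.4 to 626-fold, and the 4 other libraries overlapped. The log2 fold changes in miR-23a KO were -6.02 (SE 1.10) for *SFRP5* and -2.53 (SE 0.54) for *DKK1*, both lower in 2 of 2 libraries. Adjusted p were 0.391 and 0.46 by edgeR's quasi-likelihood test and Benjamini-Hochberg adjustment. With GC and length correction together with a block for the replicate number, *DKK1* alone was called. Neither gene was called with that correction alone or in the fit of all 6 libraries. Both genes were called by DESeq2 (-6.24 and -2.55) and with the replicate number as a block (-6.06 and -2.47). They were also called without miR-23a KO replicate 1 (-5.32 and -2.53) and without miR-23a KO replicate 2 (-2.63 for *DKK1*), where *SFRP5* has 0 counts left and no exact fold change. They were not called without Scr replicate 1 (-5.91 and -2.93) or without Scr replicate 2 (-6.19 and -2.03). *WNT9B* had a log2 fold change of 0.94 (SE 0.45), higher in 2 of 2 libraries, and was called without miR-23a KO replicate 2 (0.94). *NOTUM* had -0.71 (SE 0.46) and *AXIN2* -0.65 (SE 0.55), and *AXIN2* was called without miR-23a KO replicate 2 (-1.55), where without replicate 1 its log2 fold change was -0.19.

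*FZD1* had 3.13 and 3.38 CPM in Scr, 4.03 and 6.62 CPM in miR-23a KO, and 3.75 and 3.91 CPM in miR-27a KO. Against Scr, miR-23a KO had a log2 fold change of 0.79 (SE 0.66) for *FZD1* and 0.78 (SE 0.79) for *SFRP4*. Both genes were higher in either miR-23a KO library than in Scr. *CTNNB1* lay below Scr in both miR-23a KO libraries at a log2 fold change of -0.34 (SE 0.47), and it was called lower without replicate 2 of miR-23a KO (-0.71). Several members had opposite signs according to which miR-23a KO library was left out: *FZD4* had 0.12 without replicate 1 and -1.22 without replicate 2, and *TBX3* had 0.20 and -1.57. Members were called with either miR-23a KO library left out, and the counts stand at the end of the text beside those of all genes.

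The KO groups were also compared directly, since both comparisons above share the Scr libraries. Here miR-23a KO held more *WNT3*, *WNT9B*, *WNT11*, *PORCN* and *DKK4* than miR-27a KO in every library, and less *DKK1*, *SFRP5*, *CTNNB1*, *FZD4* and *FZD6*, but no member was called. Of 36 members, edgeR's quasi-likelihood test called 0 higher and 0 lower, against 0% of 13841 genes in either direction, with 4 higher and 4 lower at an unadjusted p under 0.05, and DESeq2 called 3 higher and 2 lower. Over 1.5-fold with no overlap, 5 members were higher, where 13.2% of all genes were, and 9 were lower, where 11.9% were. The lower members not named above were *GLUL* (log2 fold change -1.05), *NOTUM* (-0.95), *AXIN2* (-0.67) and *NKD1* (-0.61). The median log2 fold change was 0.03 over the members and 0.11 over all genes, or -0.46 and -0.08 without replicate 2 of miR-23a KO. These last medians describe that fit alone, as 15 of 36 members turned sign with a library left out. *WNT9B* had a log2 fold change of 8.38 (SE 0.49), *WNT3* 3.69 (SE 0.38), *DKK4* 5.31 (SE 0.91), *DKK1* -3.79 (SE 0.34) and *SFRP5* -6.31 (SE 0.91). Adjusted p were 0.0803, 0.0933, 0.155, 0.0933 and 0.114 for these 5, each in 2 of 2 libraries, by edgeR's quasi-likelihood test and Benjamini-Hochberg adjustment. Without miR-23a KO replicate 1 or 2, *DKK4* had 4.02 and 5.97, and *SFRP5* had -5.58 without replicate 1 and 0 counts left in that group without replicate 2. DESeq2 and the fit with the replicate number as a block called all 5. Members were called with any library left out, and these counts stand at the end of the text beside those of all genes. *WNT9B* had a log2 fold change of 8.67 without miR-27a KO replicate 1 and 8.11 without miR-27a KO replicate 2. *SFRP5* had -6.26 and -6.41 in these fits.

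Other genes of the pathway were taken from a list of 101, of which 87 had values. That list, too, was written with earlier results of these data known. In miR-27a KO 65 were tested, 6 were called higher (9.23%, beside the 3.52% of all genes) and 4 lower (6.15%, beside 6.74%), with a median log2 fold change of 0.18. *WNT7B*, a further ligand, had 8.48 and 2.16 CPM in Scr, 1.9 and 0.807 CPM in miR-23a KO, and 0.303 and 0.361 CPM in miR-27a KO. *KREMEN1*, the receptor with which DKK1 removes LRP6 from the cell surface, had 82 and 60 CPM in Scr, 28.6 and 47.6 CPM in miR-23a KO, and 165 and 161 CPM in miR-27a KO. In miR-27a KO *WNT7B* fell, at a log2 fold change of -3.97 (SE 0.83), and *KREMEN1* rose, at 1.19 (SE 0.16). *BMP4*, a growth factor gene known as a target, had 413 and 344 CPM in Scr, 284 and 308 CPM in miR-23a KO, and 151 and 158 CPM in miR-27a KO, and fell by 1.30 (SE 0.11) on the log2 scale in miR-27a KO. *RYK*, a WNT receptor outside the Frizzled family, rose from 30.4 and 29.1 CPM in Scr to 46.3 and 46.5 CPM in miR-27a KO (log2 fold change 0.64), and *TNKS*, a tankyrase that marks AXIN for removal, from 24.5 and 30 CPM to 42.9 and 43.4 CPM (0.66). *CELSR1* of planar cell polarity rose from 6.05 and 9.79 CPM to 18.8 and 16.9 CPM (1.17), and *PRICKLE2* of the same branch fell from 6.33 and 8.98 CPM to 2.18 and 3.07 CPM (-1.54). Among further targets, *TNFRSF19* rose from 64.4 and 53.4 CPM to 115 and 113 CPM (0.95) and *RHBG* from 52.7 and 57.4 CPM to 83.9 and 84.5 CPM (0.61), while *SLC1A2* fell from 11.1 and 14 CPM to 5.39 and 5.78 CPM (-1.17). Without miR-27a KO replicate 1 or 2, the calls of *WNT7B* (log2 fold change -3.85 and -4.09), *RYK* (0.65 and 0.65), *TNKS* (0.67 and 0.66), *CELSR1* (1.09 and 1.26), *PRICKLE2* (-1.31 and -1.80), *SLC1A2* (-1.12 and -1.21) and *RHBG* (0.62 and 0.62) were lost, and those of *BMP4*, *KREMEN1* and *TNFRSF19* were kept. After correction for GC content and length *RYK* (0.45), *TNKS* (0.43) and *CELSR1* (1.09) were not called, and in the fit of all 6 libraries no gene of the 10 was. Without Scr replicate 1, *TNKS* (0.53) and *RHBG* (0.56) were not called and *WNT7B* had a log2 fold change of -2.67. Without a filter on low counts, *WNT7B* (-3.95), *TNKS* (0.68), *CELSR1* (1.18), *PRICKLE2* (-1.53) and *SLC1A2* (-1.15) lost their calls. In miR-23a KO 63 of these genes were tested and edgeR's test called 0 higher and 0 lower, with 0 higher and 1 lower at an unadjusted p under 0.05, and DESeq2 called 0 in either direction.

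*TMEM170B*, a membrane protein gene that restrains the pathway, had 3.2 and 3.85 CPM in Scr, 4.26 and 6.78 CPM in miR-23a KO, and 6.12 and 6.02 CPM in miR-27a KO. All 4 KO libraries lay above Scr, at log2 fold changes of 0.78 (SE 0.26) in miR-27a KO and 0.73 (SE 0.65) in miR-23a KO, and neither passed the test. After correction for GC content and length these were 0.59 and 0.07. The gene was called in miR-27a KO without Scr replicate 2 (0.92) and not without Scr replicate 1 (0.66), and in miR-23a KO it had 0.27 without replicate 2 and 0.99 without replicate 1 of that group. *MYC*, a growth regulator and target, had 532 and 342 CPM in Scr, 251 and 288 CPM in miR-23a KO, and 301 and 295 CPM in miR-27a KO. *CCND1*, which encodes cyclin D1, had 286 and 345 CPM in Scr, 158 and 257 CPM in miR-23a KO, and 242 and 235 CPM in miR-27a KO. Both stood below Scr in all 4 KO libraries and were not called, with log2 fold changes of -0.56 (SE 0.21) and -0.41 (SE 0.11) in miR-27a KO and -0.63 (SE 0.47) and -0.52 (SE 0.48) in miR-23a KO. With a library left out, *MYC* was called lower in miR-27a KO without Scr replicate 2 (-0.84) but had -0.20 without Scr replicate 1. *CCND1* was called lower in miR-23a KO without replicate 2 of that group (-0.99) but had -0.25 without replicate 1.

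Marker genes of liver and other cell types moved with miR-27a KO as well. All 12 hepatocyte or HepG2 markers listed had values, and their summed level was 32980 and 40537 CPM in Scr, 36353 and 34162 CPM in miR-23a KO, and 27826 and 27718 CPM in miR-27a KO. In miR-27a KO 4 of them fell, *ALB*, *AFP*, *APOA2* and *FGB*, and *TF* rose. Of the 21 markers of all types tested in this KO, 4 were called higher and 5 lower. Of all genes, 3.52% were called higher and 6.74% lower. *ALB*, the most abundant of the list in Scr replicate 2, had 10420 and 15110 CPM in Scr, 7898 and 14600 CPM in miR-23a KO, and 2087 and 2151 CPM in miR-27a KO, and *AFP* had 2589 and 3913 CPM, 3808 and 6515 CPM, and 184 and 192 CPM. Of 4 cholangiocyte markers, *EPCAM* and *SPP1* rose in miR-27a KO, *KRT19* was not called and had a log2 fold change of -0.31, and *KRT7* stood under 1 CPM in every library, with a summed level of 766 and 512 CPM in Scr, 433 and 708 CPM in miR-23a KO, and 1680 and 1707 CPM in miR-27a KO, where *SPP1* made up most of it. Of 5 leukocyte markers, the defining genes *PTPRC* and *CD3E* stood under 1 CPM in every library, and the summed level, 543 and 564 CPM in Scr, 267 and 256 CPM in miR-23a KO, and 1607 and 1668 CPM in miR-27a KO, was in the latter mostly *LYZ*. *LYZ* was called higher in miR-27a KO, at a log2 fold change of 1.96. The 3 endothelial markers with values, of 4 listed, summed to between 3.3 and 6.8 CPM per library, most of it *PECAM1*, and *CDH5* stood under 1 CPM throughout. Of 6 fibroblast or stellate markers 3 had values, with sums between 132 and 216 CPM that were mostly *ACTA2*, *COL1A1* at 0 to 0.139 CPM, and *PDGFRB* called lower in miR-27a KO. In miR-23a KO, edgeR's test and DESeq2 each called 0 of 22 markers tested, with 0 higher and 3 lower at an unadjusted p under 0.05 by edgeR. The part of these markers in the results of the WNT genes was not tested.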

How the data were processed

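RNA-seq of 6 HepG2 libraries was analysed, a pair for each of 3 groups taken from the titles. The authors deposited estimated counts, with 1 value per gene and library and no scaling for depth or length, under columns named FPKM. That unit was read from the values: column totals differ, and 42.6% to 51.0% of the values have no fraction at all, or 34.5% to 40.8% of those over 0. They were rounded. The submitters' processing notes name HISAT, StringTie, Cufflinks and GATK. The genome build, the counting tool and whether counting used strand are not given in the sources used here, so reads of a gene and of an antisense partner cannot be told apart. The labels name a TruSeq RNA kit and the study's methods a stranded TruSeq kit. 0 value columns were left unused.

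Pairs of groups were fitted separately over all genes (R 4.3.3, edgeR 4.0.16: filterByExpr, TMM, glmQLFit and glmQLFTest), and Benjamini-Hochberg adjustment of p-values ran over every gene in the fit. Calls needed an adjusted p under 0.05 together with a fold change over 1.5. The standard error was the log2 fold change divided by the root of F. TMM factors lay between 0.796 and 1.166. Genes were matched by Entrez ID to GENCODE 29 (17624 of 20026, 88.0%), and 15883 had a 3′-UTR. Figures used Python 3.11.15 and matplotlib 3.10.9. The steps were tested on simulated data.

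Alternatives were median-ratio size factors, DESeq2 1.42.0, no filter on low counts, all 6 libraries in 1 fit, a block for the replicate number, loess correction for GC content and length (span 0.5, degree 2, with a GC value for 94.5% of tested genes) with and without that block, an adjusted p under 0.001, and each library left out. In the last case the lone library is assumed to vary like the other group. A call in such a fit rests on the spread of the pair that is left and is no added support for a difference.

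Members and lists were chosen with earlier results of these data known. Values per library were given for members called in a comparison, for members over 1.5-fold apart from Scr without overlap, and for a set of pathway genes whatever they did; of the other pathway genes, for those called and for *TMEM170B*, *MYC* and *CCND1*. *TCF7*, *NKD1*, *LRP5*, *SP5*, the genes beside *WNT3* and *WNT9B*, and markers named singly were added after their values were seen.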

Additional observations from a re-analysis of the deposited data

Results flagged for a closer look

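Libraries of the KO groups lay on opposite sides of both Scr libraries for 4 of the 36 members tested in all 3 comparisons (11.1%), where 5.86% of 13411 genes did so, and for *FZD2*, which did not pass the filter on low counts in these fits. *CTNNB1* was higher than Scr in both miR-27a KO libraries and lower in both miR-23a KO libraries, with a log2 fold change of -1.16 between miR-23a KO and miR-27a KO. *GLUL* lay the same way, at -1.05, and so did *DKK1*, at -3.79. *WNT9B* lay the other way, higher in miR-23a KO and lower in miR-27a KO, at 8.38. By edgeR's quasi-likelihood test and Benjamini-Hochberg adjustment none of these differences between the KO groups was called, with adjusted p of 0.458 for *CTNNB1*, 0.694 for *GLUL*, 0.0933 for *DKK1* and 0.0803 for *WNT9B*, each seen in 2 of 2 libraries. At an unadjusted p under 0.05, *CTNNB1*, *DKK1* and *WNT9B* were among 8 members. DESeq2 called *DKK1* and *WNT9B*. *CTNNB1* was called with GC and length correction and the replicate block (-1.03). Without miR-23a KO replicate 1 or 2, the log2 fold change was -0.92 or -1.45 for *CTNNB1* and -0.63 or -1.67 for *GLUL*. Without miR-27a KO replicate 1 or 2, it was -1.17 or -1.16 for *CTNNB1* and -1.21 or -0.89 for *GLUL*. A fit with 1 miR-23a KO library takes its spread from the miR-27a KO pair alone, which lay closest together, so calls in such fits add no support.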

How the results depend on the processing

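All 11 members called in miR-27a KO kept their sign in every alternative, and all 11 were called with median-ratio size factors, DESeq2 and the replicate block. Members called higher and lower there were 0 and 2 in a fit of all 6 libraries and 0 and 0 at an adjusted p under 0.001, and ranged over 1 to 6 and 3 to 7 with a library left out. Of all genes, 1418 were called, 892 without a filter, 64 in a fit of all 6 libraries, 4 at 0.001, and 334 to 3716 with a library left out.

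In miR-23a KO against Scr, members called lower were 2 with DESeq2, 2 with the replicate block and 1 with GC correction and the block, with ranges of 0 to 3 higher and 0 to 7 lower when a library was left out. Genes called in all were 63 with DESeq2, 10 without a filter, 3 in a fit of all 6 libraries, 69 with the block, 2 with GC correction, 31 with both, and 4 to 2630 with a library left out.

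Between the KO groups, members called higher and lower were 3 and 2 with DESeq2, 2 and 2 in a fit of all 6 libraries, 3 and 2 with the block, 3 and 2 with GC correction and 4 and 6 with both, and 1 to 9 and 1 to 16 with a library left out. Genes called in all were 477, 218, 400, 325 and 1204 in that order, and 72 to 7303 with a library left out.

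Deviations of libraries with the same replicate number correlated at 0.01 (miR-27a KO and Scr), 0.149 (miR-23a KO and Scr) and 0.017 (both KO groups) over 14163 genes, so the number was not taken as a pairing.

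With a library left out the log2 fold change turned sign for 6 of 36 members in miR-27a KO, 26 of 37 in miR-23a KO and 15 of 36 between the KO groups. In miR-27a KO these were *AXIN2* and *APC* (-0.69 to 0.38), *LGR4* (-0.45 to 0.50), *TCF7L1* (-0.14 to 0.66), *SFRP4* (-0.18 to 1.28) and *NOTUM* (-0.05 to 0.46). Of the genes followed through every setting, it turned in other settings too for *AXIN2* in miR-27a KO (0.04 with GC correction, 0.04 with the block too, -0.20 to 0.07 with a library left out), for *FZD6* in miR-23a KO (-0.11 with the block, -0.07 with GC correction, -0.48 with both, -1.93 to 1.39 with a library left out) and for *CCND1* between the KO groups (0.02 with GC correction, 0.00 with the block too, -0.58 to 0.10 with a library left out). Among those that turned with a library left out were, in miR-23a KO, *APC* (-1.57 to 1.40), *FZD3* (-1.51 to 0.79), *DVL1* (-0.55 to 1.07), *DVL2* (-0.32 to 0.84), *LGR4* (-0.53 to 1.19), *SP5* (-0.81 to 0.21), *RNF43* (-0.85 to 0.11), *GSK3B* (-0.48 to 0.48), *LRP5* (-0.36 to 0.08), *LRP6* (-0.53 to 1.19), *TBX3* (-1.57 to 0.20), *WNT11* (-0.07 to 0.83), *FZD4* (-1.22 to 0.12), *LGR5* (-0.89 to 0.82), *DKK4* (-0.91 to 2.22) and *PORCN* (-0.89 to 0.48), and, between the KO groups, *LRP6* (-1.24 to 0.42), *TBX3* (-0.56 to 1.16), *APC* (-1.31 to 1.60) and, of the other pathway genes, *TMEM170B* (-0.51 to 0.15). The cause was not tested. Members with few counts, such as *WNT9B* in miR-27a KO, are limited by depth.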
